A study of Mus musculus with 7 samples.

Results

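The genes described here are 10 protein-coding genes known for their expression in mouse embryonic stem cells (ESCs): Dppa2, Dppa3, Dppa4, Dppa5a, Tcl1, Sall1, Sall4, Lin28a, Jam2 and Rif1. They were chosen by name out of 21887 protein-coding genes. The measurements are the peaks of chromatin immunoprecipitation sequencing (ChIP-seq) that the authors listed in the body of each gene or near it. The series title links Oct1 to Smad factors in the commitment of cells to mesoderm, and the lists address where Oct1 lies before and during that step and which of its ESC positions Oct4 shares. Each of the 4 groups is 1 library of parental cells. In undifferentiated ESCs, Oct1 and Oct4 were each precipitated, and Oct1 was precipitated again, with the same antibody, at day 3 and at day 6 of differentiation towards mesoderm. Per the series design, the first 2 days of differentiation used N2B27 medium with Bmp4. The following 4 days used Rspo3, a Wnt pathway agonist, together with LDN-193189, which inhibits BMP receptors. The parental line is not further described in the labels. The 3 input samples and the conditional knockout and retinoic acid arms were not analysed here. Peak lists hold no expression, so the labelled cell types could not be checked against marker genes. With 1 library per group there was no replicate error, no test between groups was made, and every difference between lists is a difference between libraries.

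Oct1 (Pou2f1) and Oct4 (Pou5f1) are transcription factors with a POU domain, a bipartite DNA-binding unit that recognises the octamer sequence and related elements. Oct4 is required for pluripotency, whereas Oct1 is widely expressed. The 10 genes hold varied roles in ESCs. Dppa2 and Dppa4 are SAP-domain chromatin proteins that act as a pair, and Dppa3 (Stella) is a maternal factor that guards DNA methylation patterns. Dppa5a is an RNA-binding protein with a KH domain, and Lin28a binds RNA and blocks maturation of let-7 microRNAs. Tcl1 is a co-activator of the kinase Akt, Sall1 and Sall4 are zinc-finger transcription factors of the spalt family, Jam2 is a junctional adhesion molecule, and Rif1 acts in replication timing and repair of DNA breaks.

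The lists held 17709 peaks for Oct1 in ESCs, 22817 for Oct4 in ESCs, 4867 for Oct1 at day 3 and 7758 for Oct1 at day 6. The labels state 100 M read pairs of sequencing, without a count for each library. The reads behind each list, the peak caller and the threshold are not known here, so a gene without a listed peak is not shown to be unbound. The score of a peak is the authors' own whole number with no stated unit. It is used here only to rank a peak within its own list, with rank 1 for the highest score, and the percentile is the percentage of that list's peaks with a score at or below it. Coordinates are those of the lists, counted from 1, in build mm10 (GRCm38). The gene table gave strand and start sites for Tcl1, Sall1 and Lin28a through its promoter windows; for the other genes the 2 ends are called the lower-coordinate and the higher-coordinate end, and exons and introns are not known for any of them.

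Within 10 kb, the gene body included, ESC Oct1 had a listed peak at 3 of the 10 genes, namely Dppa5a, Tcl1 and Lin28a. The share of all protein-coding genes was 35.2%. Oct4 in ESCs had a peak within 10 kb of the same 3 genes and of Sall1, so of 4 genes, against 40.2% of all genes. At day 3, Oct1 was listed at Sall1, Lin28a and Rif1, which is 3 of 10 against 24.6% of all genes. At day 6 it was listed at Sall1, Sall4, Lin28a, Jam2 and Rif1, which is 5 of 10 against 41.5%. Lin28a was the gene with a peak within 10 kb in all 4 lists. These counts lie near the share of all genes in each list. With the higher-scoring 50% of each list, the day 6 count was 3 of 10 against 25.0% of all genes. With every list shortened to 4867 peaks, the Oct4 count was 2 of 10 against 14.7%. The 10 genes had a median length of 13212 bp, from 1148 bp for Dppa5a to 53955 bp for Rif1, and the median over all protein-coding genes was 17169 bp.

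Within 50 kb the numbers were 5 of 10 for Oct1 in ESCs, 6 for Oct4, 5 at day 3 and 5 at day 6. The shares of all genes were 58.7%, 62.5%, 41.5% and 57.9% in the same order. The wider window added Dppa3 and Sall4 to both ESC lists, and Dppa3 and Jam2 to the day 3 list. No list had a peak within 50 kb of Dppa2 or Dppa4. Of all protein-coding genes, 77.6% had a peak within 50 kb in at least 1 list, as did 8 of the 10. Within 10 kb the corresponding values were 63.5% and 7 of the 10, with Dppa3 now also without a peak.

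Narrower windows kept most of these genes. In the gene body itself a peak was listed for 3 of 10 genes with ESC Oct1 (23.9% of all genes), 4 with Oct4 (28.0%), 3 at day 3 (17.7%) and 4 at day 6 (33.6%). With 5 kb on either side the same counts of 3, 4, 3 and 4 stood beside 29.5%, 34.0%, 21.5% and 38.0%. With 100 kb they were 8, 8, 6 and 6, beside 69.5%, 72.5%, 53.3% and 67.7%. Jam2 is the gene that entered the day 6 list between 5 and 10 kb.

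**Figure D1:**
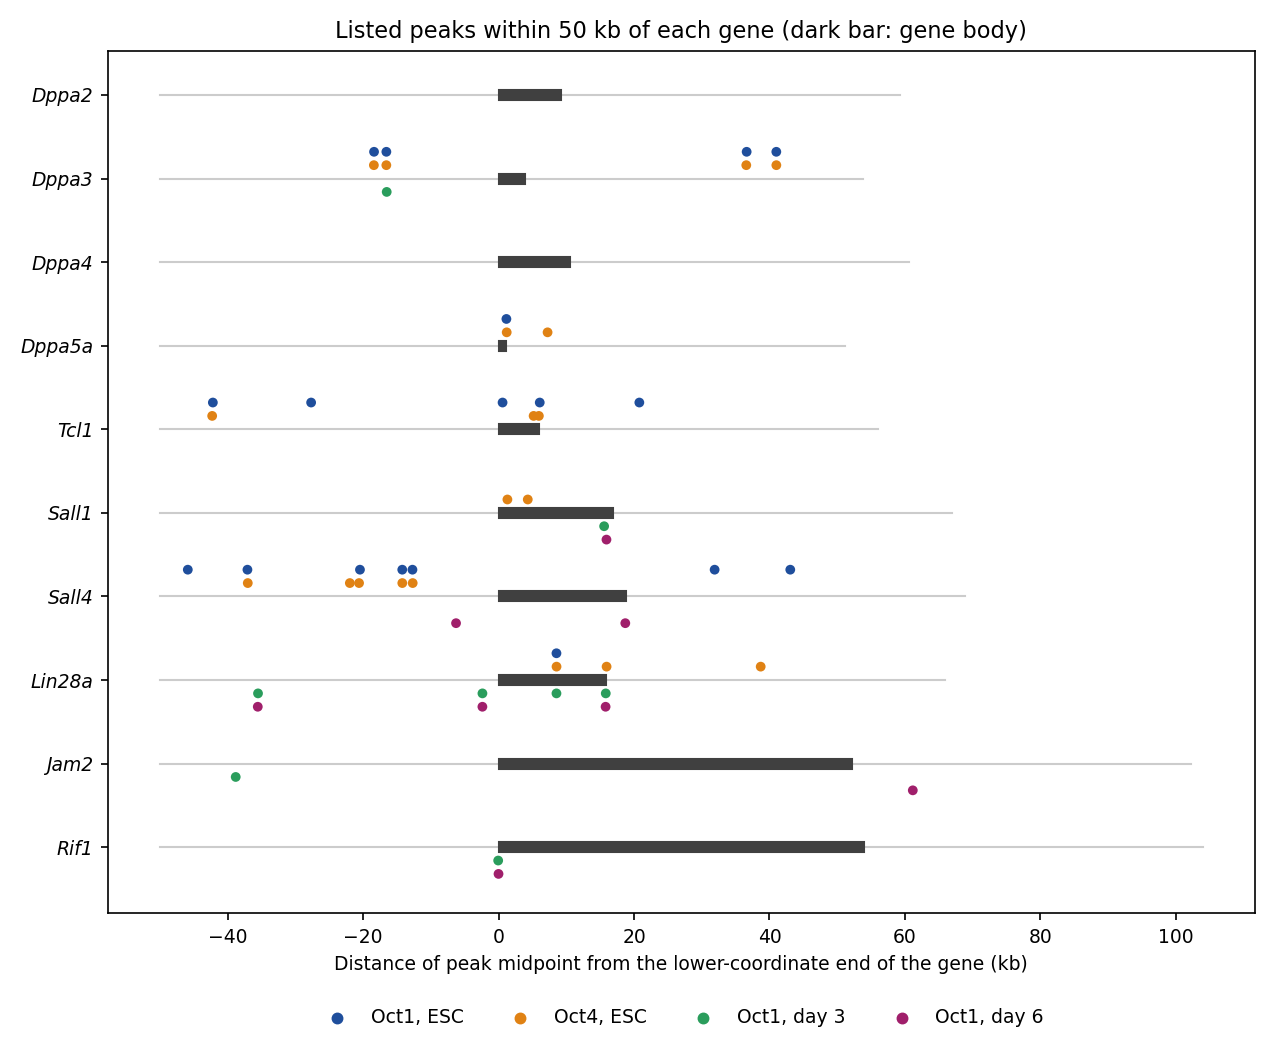
Midpoints of all listed peaks within 50 kb of the 10 genes, as distance in kb from the lower-coordinate end of each gene; the dark bar is the gene body to scale, and each colour is 1 library. Dppa2 and Dppa4 have no point, Tcl1 and Dppa3 have ESC peaks, Dppa3 also has 1 day 3 peak, and Rif1 has day 3 and day 6 peaks at its lower-coordinate end.

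Dppa2 (chr16:48310274-48319513, gene ID 73703) and Dppa4 (chr16:48283735-48294292, gene ID 73693) are neighbours with 16.0 kb between them, so they share one peak-free region. The Oct4 peak nearest to Dppa2 in ESCs lay 106 kb away, and the nearest ESC Oct1 peak lay 125 kb away. For Dppa4, the nearest ESC Oct1 peak was at 98 kb and the nearest Oct4 peak at 131 kb. The nearest Oct1 peak of the later lists was the day 6 peak 1535848 bp from Dppa2, and for Dppa4 the day 6 peak 1561069 bp away. The later lists hold fewer peaks than the ESC lists, so these distances are not comparable between lists.

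Dppa3 (chr6:122626424-122630271, gene ID 73708) had no peak within 10 kb in any list, but 4 sites within 50 kb in ESCs, and each of these carried both factors. Below its lower-coordinate end lay a pair of sites in Gdf3, the gene of a TGF-beta family ligand. The site at chr6:122609561-122610160 crossed the higher-coordinate end of Gdf3, 16.3 kb from Dppa3. It ranked 2160 for Oct1 and 2636 for Oct4 in ESCs, and 2886 at day 3, where the score was 154 (percentile 40.7). The other Gdf3 site ranked 5000 for Oct1 and 3339 for Oct4 and had no later peak. These peaks lay closer to Gdf3 than to Dppa3.

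Beyond the higher-coordinate end of Dppa3, the second pair of sites lay between Dppa3 and Nanog, a core pluripotency gene. The Oct1 peak at chr6:122662711-122663400 lay 32.4 kb from Dppa3 and 44.1 kb from Nanog, with a score of 204 (rank 3530) and an overlapping Oct4 peak of score 204 (rank 4894). The next Oct1 peak, at chr6:122667081-122667790, lay 36.8 kb from Dppa3 and 39.7 kb from Nanog, with a score of 74 (rank 12908), and its Oct4 partner had a score of 158 (rank 8648). Neither position was listed at day 3 or day 6. By distance both sites were assigned to Dppa3, but the lists do not say which gene a peak acts on.

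Dppa5a (chr9:78367052-78368199, gene ID 434423) had the highest ESC Oct1 score within 10 kb among the 10 genes. The Oct1 peak, chr9:78367901-78368520, lay across the higher-coordinate end of the gene, with its midpoint 11 bp from that end, a score of 384, rank 1294 and percentile 92.7. The Oct4 peak at the same place, chr9:78367971-78368540, had a score of 343, rank 1023 and percentile 95.5. A second Oct4 peak, of score 181 (rank 6575), lay 5.8 kb beyond that end, nearer to Ooep, a gene of the oocyte. No day 3 or day 6 peak was listed within 50 kb, and the nearest lay 113 kb and 80 kb away.

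Over the 4 lists, the percentile of the strongest peak within 10 kb (0 where none was listed) described each gene by 4 values. Of 30 other ESC genes, those nearest to Dppa5a by Euclidean distance in these values were Fgf4 (3.61), Esrrb (5.73) and Dnmt3l (8.52). Their percentiles for Oct1 and Oct4 in ESCs, which this choice used, were 93.1 and 91.9 at Fgf4, 96.5 and 99.8 at Esrrb, and 84.7 and 92.6 at Dnmt3l. Their day 3 and day 6 values, which this choice also used, were 0, as at Dppa5a.

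Lin28a (chr4:134003330-134019196, gene ID 83557) carried peaks at 3 positions within 10 kb, and each had its own combination of lists. Inside the gene, 7316 bp from its higher-coordinate end, the ESC Oct1 peak chr4:134011631-134012130 had a score of 100 (rank 9106, percentile 48.6). Oct4 at that position scored 180 (rank 6596), and day 3 Oct1 scored 254 (rank 1847, percentile 62.1). No day 6 peak was listed there. The site thus had both factors in ESCs and Oct1 at day 3. Of all sites within 50 kb of a protein-coding gene, 1.55% had this combination. It was the only site within 10 kb of any of the 10 genes where Oct1 was listed both in ESCs and later.

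At the start of Lin28a, on the minus strand, the combination was different. Oct4 in ESCs had its joint strongest peak near the 10 genes there, at chr4:134018961-134019600, with a score of 343, rank 1023 and percentile 95.5. No ESC Oct1 peak was listed at this position. Oct1 was listed there at day 3, with a score of 122 (rank 3319, percentile 31.8), and at day 6, with a score of 367 (rank 4907, percentile 36.8). This was the 1 site near these genes with a listed Oct4 peak in ESCs, no listed ESC Oct1 peak, and Oct1 listed later. Of all sites within 50 kb of a protein-coding gene, 0.0658% had this combination with both later lists. Those with day 3 as the only later list made up 0.374%, and those with day 6 as the only later list 0.478%. A difference from these shares was not tested. The RefSeq promoter window (build GRCm38.p6, chr4:134018767-134019066, minus strand, 300 bases around the start) is shown because peaks of 3 lists fall in it, covering 106 of its 300 bases for Oct4, 206 for day 3 and 300 for day 6; it holds no motif match, so no base is in capitals.
Lin28a: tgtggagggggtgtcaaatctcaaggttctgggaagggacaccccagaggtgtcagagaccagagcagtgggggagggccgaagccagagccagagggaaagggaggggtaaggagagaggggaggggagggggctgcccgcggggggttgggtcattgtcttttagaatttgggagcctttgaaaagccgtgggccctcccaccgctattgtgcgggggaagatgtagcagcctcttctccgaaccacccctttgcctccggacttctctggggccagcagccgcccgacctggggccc

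The other positions within 50 kb of Lin28a lay nearer to neighbouring genes. At the higher-coordinate end of Dhdds, a gene of dolichol synthesis, Oct1 was listed at day 3 (score 309, rank 1458) and day 6 (score 795, rank 2368). The edge of these peaks lay 2.1 kb from the lower-coordinate end of Lin28a. Oct1 at the higher-coordinate end of Hmgn2, the gene of a nucleosome-binding protein, lay 34.9 kb from Lin28a. It had the highest rank of any later peak within 50 kb of the 10 genes, with a score of 1384 and rank 824 at day 6. At day 3 the score there was 297 (rank 1535). An Oct4 peak of score 125 (rank 13504) lay 22.6 kb beyond the higher-coordinate end of Lin28a.

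Tcl1 (chr12:105216753-105222737, gene ID 21432) had its peaks in ESCs alone, 5 for Oct1 and 3 for Oct4 within 50 kb. At its start site, the Oct1 peak chr12:105222581-105223090 had a score of 291 (rank 2097, percentile 88.2), and Oct4 over the same position had a score of 203 (rank 5303, percentile 76.8). A separate Oct4 peak of score 106 (rank 16431) lay inside the gene, 807 bp from that end by midpoint, and a weak Oct1 peak of score 53 (rank 15674) lay near the other end. The nearest Oct1 peaks at day 3 and day 6 were 114 kb and 184 kb away.

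The promoter window of Tcl1 (chr12:105222688-105222987, minus strand) is shown because it lay wholly within both the Oct1 and the Oct4 peak of ESCs. It has 56.7% G and C and 11 CpG sites, beside medians of 52.7% and 7 over 32817 RefSeq windows. No motif match was found in it.
Tcl1: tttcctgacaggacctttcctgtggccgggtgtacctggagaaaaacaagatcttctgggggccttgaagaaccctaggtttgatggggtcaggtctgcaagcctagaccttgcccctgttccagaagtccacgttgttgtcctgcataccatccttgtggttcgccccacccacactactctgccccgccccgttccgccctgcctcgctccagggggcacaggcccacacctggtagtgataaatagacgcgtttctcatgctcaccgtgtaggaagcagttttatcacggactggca

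Towards its paralogs, a cluster of Tcl1b genes, Tcl1 had 2 further ESC Oct1 positions. The peak at chr12:105174291-105174850, 41.9 kb away and nearest to Tcl1b5, scored 179 (rank 4204) for Oct1, and its Oct4 partner scored 334 (rank 1092, percentile 95.2). The peak nearest to Tcl1b3, at chr12:105188831-105189330, scored 167 (rank 4651) and had no Oct4 partner. On the other side, 14.5 kb beyond Tcl1, an Oct1 peak of score 53 (rank 15674) stood alone.

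Sall1 (chr8:89027242-89044162, gene ID 58198) was the gene where Oct4 in ESCs and Oct1 in differentiating cells lay in opposite parts of the gene body. The Oct4 peaks, chr8:89028281-89028820 (score 144, rank 11330) and chr8:89031151-89031960 (score 76, rank 20419), lay near the lower-coordinate end, which is the far end from the start sites. No ESC Oct1 peak was listed within 50 kb, and the nearest was 54 kb away. Oct1 at day 3 covered chr8:89042461-89043200 (score 270, rank 1714, percentile 64.8). Oct1 at day 6 covered chr8:89042481-89043870, the widest of these 4 peaks at 1390 bp, with a score of 515 (rank 3829, percentile 50.7).

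RefSeq gave 3 start windows for Sall1, all on the minus strand. The outermost window (chr8:89044113-89044412) was covered by no peak, the middle one (chr8:89043463-89043762) wholly by the day 6 peak, and the innermost one (chr8:89042813-89043112) wholly by both the day 3 and the day 6 peak. The innermost window is shown because it lies in both later peaks and holds the 1 match near an octamer among the windows of these genes, in capitals. It is rich in G and C (79.7%, beside a 95th percentile of 73.7% over all windows) and holds 39 CpG sites.
Sall1: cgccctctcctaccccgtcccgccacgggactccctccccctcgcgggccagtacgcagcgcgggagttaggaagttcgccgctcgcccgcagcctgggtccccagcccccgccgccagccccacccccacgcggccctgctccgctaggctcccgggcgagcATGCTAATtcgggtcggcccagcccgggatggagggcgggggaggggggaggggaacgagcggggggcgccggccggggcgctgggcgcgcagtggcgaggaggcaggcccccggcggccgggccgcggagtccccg

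Promoter windows were found for 3 of the 10 genes, 5 windows in all. None of the 5 held the exact octamer ATGCAAAT on either strand, which 1.74% of all 32817 windows of 300 bases held. None held ATGCATAT, the first 8 letters of the palindromic MORE element for POU dimers, which 0.771% of windows held; both motifs share their first 5 letters. With 1 substitution allowed in the octamer, 1 of the 5 matched, beginning at base 164 of the innermost Sall1 window, and 18.6% of all windows did so. The missing matches say only that these letters are not in these windows.

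Sall4 (chr2:168748332-168767201, gene ID 99377) had the most sites, 10 within 50 kb, and yet no ESC peak within 10 kb. In ESCs, Oct1 had 7 peaks and Oct4 had 5. Those below its lower-coordinate end, 5 for each factor, lay inside Atp9a, the gene of a phospholipid-transporting ATPase, and 4 of the 5 Oct1 peaks there overlapped Oct4. Their Oct1 scores ranged from 64 (rank 14533) to 175 (rank 4494), and the Oct4 scores from 145 (rank 11257) to 218 (rank 4056). The nearest was 12.4 kb from Sall4 for either factor.

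Beyond the higher-coordinate end of Sall4, Oct1 was listed without Oct4. The peak at chr2:168779971-168780500, 12.8 kb away, had a score of 217 (rank 3200, percentile 81.9). The peak at chr2:168791151-168791660, 23.9 kb away, had a score of 337 (rank 1592, percentile 91.0) and was the second strongest ESC Oct1 peak near the 10 genes. Both had Sall4 as the nearest protein-coding gene. At day 6, neither was listed, and an Oct1 peak lay instead across the higher-coordinate end of Sall4 (chr2:168766721-168767370, score 545, rank 3628, percentile 53.2). The other day 6 peak, of score 53 (rank 7675 of 7758, percentile 1.08), was at the higher-coordinate end of Atp9a. Day 3 had no peak within 50 kb, and the nearest lay 99 kb away.

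Rif1 (chr2:52072815-52126769, gene ID 51869) had Oct1 at its lower-coordinate end in both later lists and no ESC peak within 50 kb. The day 3 peak, chr2:52072481-52073040, had a score of 277 (rank 1667, percentile 65.8). The day 6 peak, chr2:52072541-52073080, had a score of 478 (rank 4092, percentile 47.3), with its midpoint 5 bp from the lower-coordinate end of the gene. The nearest ESC peaks of Oct1 and Oct4 each lay 71 kb away.

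Jam2 (chr16:84774123-84826380, gene ID 67374) had no peak in its body. The day 6 Oct1 peak that brought it within 10 kb, chr16:84834771-84835800 (score 233, rank 5990, percentile 22.8), lay 8.4 kb away over the adjoining ends of Atp5j, the gene of an ATP synthase subunit, and Gabpa, the gene of an ETS-family transcription factor. A day 3 Oct1 peak of score 216 (rank 2210) lay 38.5 kb away at the higher-coordinate end of Mrpl39, the gene of a mitochondrial ribosomal protein. Both positions lay nearer to those genes than to Jam2, so no peak had Jam2 as its nearest gene. Oct4 in ESCs came closest just outside the wider window, 50473 bp away.

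**Figure D2:**
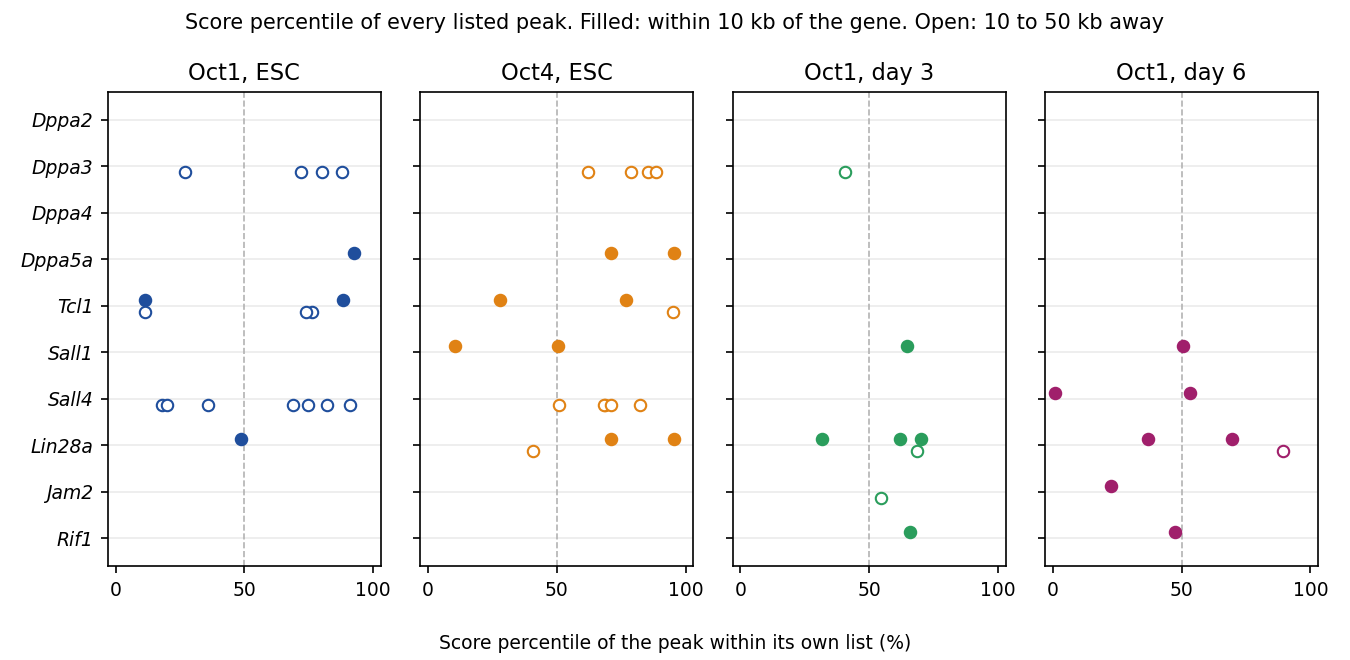
Score percentile of every listed peak within 50 kb of each gene, in 1 panel per library; filled points lie within 10 kb of the gene, open points 10 to 50 kb away, and the dashed line marks the middle of the list. The highest ESC points are Dppa5a (92.7 for Oct1, 95.5 for Oct4) and Lin28a (95.5 for Oct4), and no later peak is above 89.4.

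In ranks, the peaks near these genes were spread widely in both ESC lists and at day 6, and lay in the middle of the day 3 list. The median percentile was 72.8 over the 18 ESC Oct1 peaks (range 11.5 to 92.7) and 71.1 over the 19 ESC Oct4 peaks (range 10.5 to 95.5). It was 63.4 over the 8 day 3 peaks (31.8 to 70.1) and 49.0 over the 8 day 6 peaks (1.08 to 89.4). A percentile over 90 was reached by 2 ESC Oct1 peaks (at Dppa5a and Sall4), by 3 Oct4 peaks (at Dppa5a, Lin28a and the Tcl1b side of Tcl1) and by no later peak.

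Merged across lists, the 53 peaks formed 33 sites, of which 22 had peaks in ESCs alone, 8 had peaks at day 3 or day 6 alone, and 3 had both. Over all 33441 sites within 50 kb of a protein-coding gene, these classes made up 72.0%, 21.0% and 6.98%, so the sites of the 10 genes were divided much as those of all genes. The most frequent combination was both factors in ESCs and nothing later, at 10 of 33 sites (24.0% of all sites), at Dppa3, Dppa5a, Tcl1 and Sall4. Oct1 alone in ESCs accounted for 6 sites (16.4% of all), at Sall4 and Tcl1, and Oct4 alone for 6 (31.7% of all), at Dppa5a, Lin28a, Sall1, Sall4 and Tcl1. Day 3 and day 6 shared 4 sites outside the ESC lists (6.79% of all), at Lin28a, Rif1 and Sall1. The 3 sites with peaks in ESCs and later were the Gdf3 site of Dppa3 and both the inner site and the start of Lin28a.

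**Figure D3:**
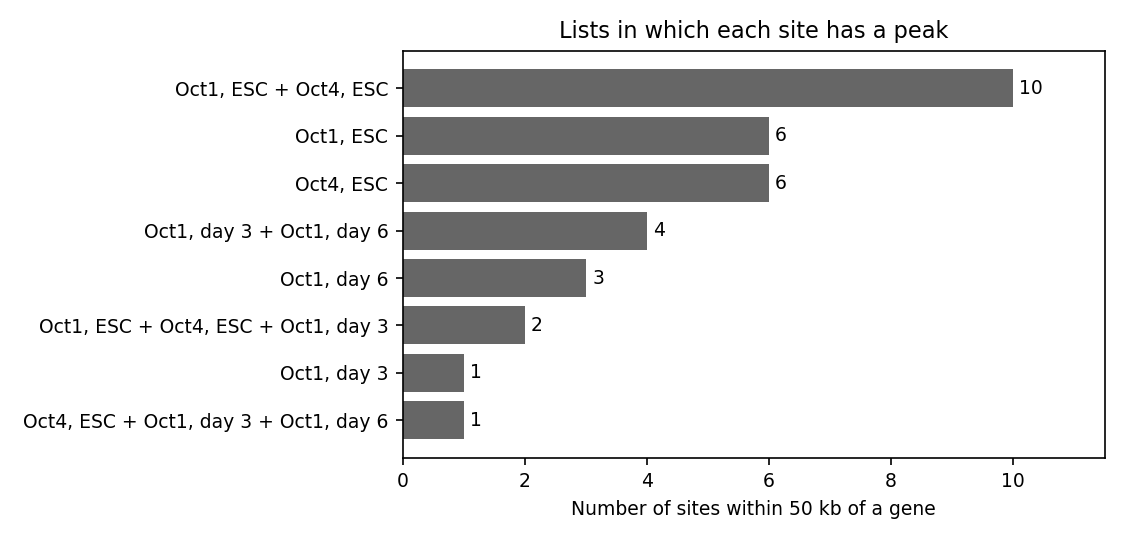
Number of sites within 50 kb of the 10 genes (horizontal axis) by the lists in which each has a peak (rows). Sites with Oct1 and Oct4 in ESCs and nothing later are the largest class with 10 of 33, and no row joins Oct1 in ESCs with Oct1 at day 6, a combination that 3.30% of the sites near all protein-coding genes have.

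Of the 18 ESC Oct1 peaks, 12 overlapped an Oct4 peak, which is 66.7% (exact Clopper-Pearson 95% interval 41.0 to 86.7), and 59.1% of all ESC Oct1 peaks did so. With every list shortened to its 4867 highest-scoring peaks, the share was 33.3% (3 of 9), against 37.3% of the shortened Oct1 list. Seen from Oct4, 12 of 19 peaks overlapped Oct1 (63.2%, 38.4 to 83.7), against 46.0% of all Oct4 peaks. At the 12 shared sites the midpoints of both peaks lay a median of 40 bp apart (5 to 135), and over all 10461 shared ESC Oct1 peaks the median was 55 bp. The 6 ESC Oct1 peaks without Oct4 had percentiles of 11.5, 11.5, 17.9, 73.7, 81.9 and 91.0, so 3 were low in the list and 3 were high, and the 12 shared peaks lay from 20.1 to 92.7 (median 73.2). In the whole list both classes had a median of 50.5. Intervals cover the counting of peaks only, and neighbouring peaks are not independent.

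Later in differentiation, 2 of the 18 ESC Oct1 peaks overlapped a day 3 peak (11.1%, 1.38 to 34.7), and 8.88% of the whole list did. None of the 18 overlapped a day 6 peak, a count that allows a share of up to 16.7% taken as 3 of 18 peaks (exact upper limit 18.5%), and the share of the whole list was 6.66%. From the other side, 5 of the 8 day 6 peaks overlapped a day 3 peak (62.5%, 24.5 to 91.5, against 36.6% of the list). Of the 8 day 6 peaks none lay at an ESC Oct1 peak, which allows up to 37.5% taken as 3 of 8 (exact upper limit 36.9%), with 15.2% of the list. Each interval or upper limit includes the share of its whole list. With the higher-scoring 50% of each list, no ESC Oct1 peak near these genes overlapped a day 3 peak (0 of 11), and 8.10% of the Oct1 list so shortened did.

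Peaks of ESCs and of differentiating cells also lay at different distances from gene ends, both near these genes and in the whole lists. The midpoint was within 1 kb of an end of any annotated gene for 4 of 18 ESC Oct1 peaks, or 22.2% (interval 6.41 to 47.6), and for 5 of 19 Oct4 peaks, or 26.3% (interval 9.15 to 51.2). It was so for 6 of 8 day 3 peaks (75.0%, 34.9 to 96.8) and for 8 of 8 day 6 peaks (100%, 63.1 to 100). The shares of the whole lists were 17.3%, 15.0%, 58.9% and 76.4%, also higher at day 3 and day 6 than for either factor in ESCs. Each of these intervals includes the share of its whole list, so the peaks near these genes were not shown to differ from their lists. Of the 8 day 6 peaks, those at Sall1, Sall4, Lin28a and Rif1 lay at the gene itself, and the other 4 at Atp9a, Dhdds, Hmgn2 and the Atp5j and Gabpa pair.

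Per gene, an Oct1 peak within 10 kb at day 3 or day 6 without one in ESCs was found for Sall1, Sall4, Jam2 and Rif1, which is 4 of 10 against 23.0% of all protein-coding genes. The reverse, an ESC peak without a later one, held for Dppa5a and Tcl1, 2 of 10 against 12.7%. Lin28a had both, 1 of 10 against 22.6%. Day 3 and day 6 Oct1 were both within 10 kb of Sall1, Lin28a and Rif1, 3 of 10 against 20.6%. Oct1 and Oct4 in ESCs were both within 10 kb of 3 of 10, against 28.9%.

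**Figure D4:**
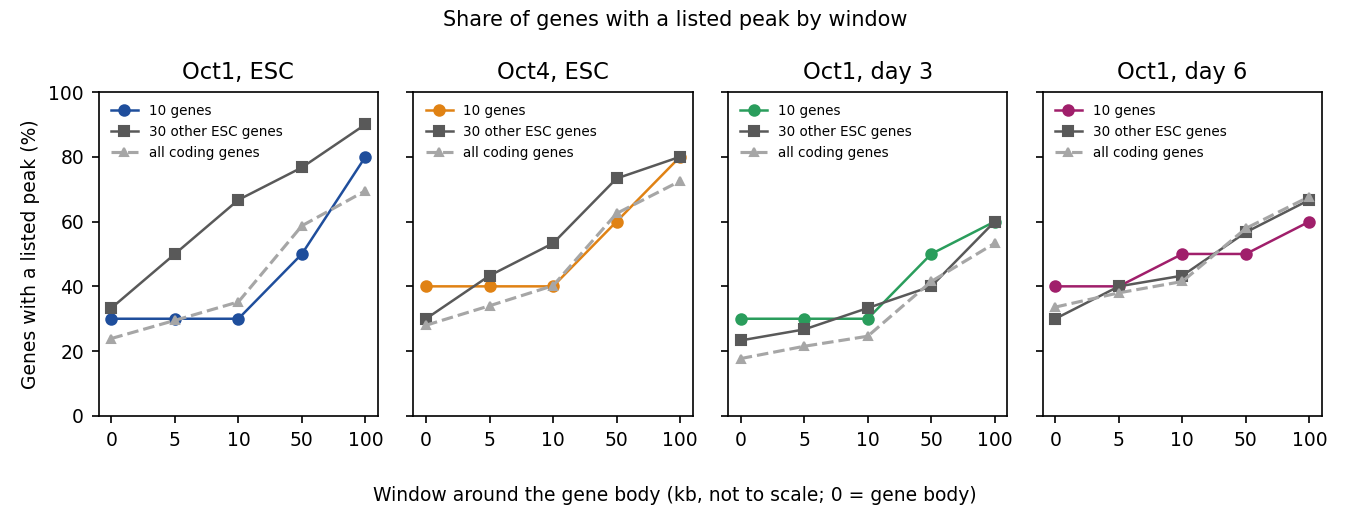
Percentage of genes with a listed peak (vertical axis, 0 to 100%) by window around the gene body in kb (horizontal axis, 0 is the body alone), in 1 panel per library; circles are the 10 genes, squares 30 other ESC genes, triangles all 21887 protein-coding genes. For Oct1 in ESCs at 10 kb the other ESC genes stand at 66.7% and all genes at 35.2%, with 3 of the 10 genes, and at day 6 they stand at 43.3% and 41.5%, with 5 of the 10.

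A list of 30 other ESC genes, among them Pou5f1, Nanog, Sox2, Esrrb and Zfp42, gives the setting. Within 10 kb, ESC Oct1 was listed at 20 of the 30 (66.7%) and Oct4 at 16 (53.3%), beside 3 and 4 of the 10 genes here and 35.2% and 40.2% of all genes. In the gene body alone the counts were 10 of 30 (33.3%) for Oct1 and 9 of 30 for Oct4. Beside these stood 3 and 4 of 10, and 23.9% and 28.0% of all genes, so the distance between both gene lists seen at 10 kb was not seen there. For ESC Oct1 it was seen at 5 kb, with 15 of 30 and 3 of 10 (all genes 29.5%). At 50 kb the counts for ESC Oct1 were 23 of 30 and 5 of 10 (all genes 58.7%). Oct4 at 5 kb was listed at 13 of 30 and 4 of 10 (all genes 34.0%). At day 3 the count within 10 kb was 10 of 30 (33.3%, against 24.6% of all genes) and at day 6 it was 13 of 30 (43.3%, against 41.5%). Both factors were within 10 kb in ESCs for 15 of the 30 (28.9% of all genes). ESC Oct1 without later Oct1 was found for 8 (12.7% of all genes). Gdf3 and Nanog are in this list, and the peaks within 50 kb of Dppa3 are also counted there for Gdf3 or Nanog. The difference between both gene lists was not tested, and both were written with earlier results of these data known.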

How the data were processed

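The series measured Oct1 and Oct4 binding by ChIP-seq in mouse ESCs and mesodermal derivatives. Cells were fixed in 1% formaldehyde and libraries read as pairs of 50 bp reads, at a stated 100 M read pairs, per the labels' protocols. Per the submitters' processing notes, Novoalign 3.8.2 and build mm10 were used; the peak caller, its threshold and the use of inputs are not given in the sources used here. The authors deposited 1 peak list per library, with a whole-number score per peak of unstated scale; the lists carry no read counts, so the depth reached in each library could not be measured from them.

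Peaks were assigned to genes of a RefSeq table (GRCm38.p6) when they overlapped the gene body widened by 10 or 50 kb by at least 1 bp. Assignment and overlaps were computed in Python 3.11.15 (pandas 2.3.3, numpy 2.4.6, scipy 1.17.1), tested on planted peaks and checked with bedtools 2.31.1; figures used matplotlib 3.10.9. Motifs were searched in RefSeq promoter windows. Exon positions, and the strand of genes without a promoter window, were not used here. The 10 genes were given by name, all are described, and the strongest peak per list is given for each; the members and lists were chosen with earlier results of these data known. Alternatives were the higher-scoring 50% of each list, lists of equal length, midpoints, the nearest gene only, other windows and stricter overlap. No sample was left out of a group.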

Additional observations from a re-analysis of the deposited data

How the results depend on the processing

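Of 63 alternative values for 12 results, 55 stayed within 1.5 times the count or within the interval of the share, and 8 did not; the cause was not tested. All were planned except the octamer with 1 substitution, which was chosen after seeing the data and gave 1 gene in place of 0. With the higher-scoring 50% of each list, day 6 Oct1 was listed at 3 genes within 10 kb and at 3 within 50 kb, in place of 5 (all genes 25.0% and 39.9%, in place of 41.5% and 57.9%), and the share of ESC Oct1 peaks overlapping day 3 was 0 (0 of 11) in place of 11.1%, where the share of the whole list was 8.10% in place of 8.88%. With every list shortened to 4867 peaks, Oct4 was listed at 2 genes within 10 kb in place of 4 (all genes 14.7% in place of 40.2%), and 33.3% of ESC Oct1 peaks (3 of 9) overlapped Oct4. With peaks given only to their nearest protein-coding gene, day 3 Oct1 was listed at 3 genes within 50 kb in place of 5 (all genes 18.9% in place of 41.5%). A window of 100 kb gave ESC Oct1 peaks at 8 genes in place of 5 (all genes 69.5% in place of 58.7%). Distances bound these counts: within 10 kb the farthest peak lay at 8391 bp (Jam2, day 6) and the closest outside at 12422 bp (Sall4, Oct4). No paired analysis was possible because each group had 1 library. The labels state 100 M read pairs, but the lists hold no read counts, so no limit of detection can be given.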

Other observations

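The relatives of the 10 genes, a list of 7 (Lin28b, Sall2, Sall3, Tcl1b1, Tcl1b2, Jam3 and F11r), had an ESC Oct1 peak within 10 kb at 4 and an Oct4 peak at 3, where the shares of all protein-coding genes were 35.2% and 40.2%. Later Oct1 was listed within 10 kb of 1 of the 7 at day 3 and of 2 at day 6, against 24.6% and 41.5% of all genes. Sall3, a spalt-family paralog of Sall1 and Sall4, had by rank the strongest Oct1 peaks of the 17 genes of both lists. Oct1 at Sall3 ranked 83 in ESCs (score 4229, percentile 99.5), 41 at day 3 (score 5671, percentile 99.2) and 722 at day 6 (score 1460, percentile 90.7). The 3 peaks overlapped one another, the ESC and day 3 midpoints lay 296 bp from a gene end and the day 6 midpoint 4 bp, and no Oct4 peak was listed within 10 kb. Among the 3 sites within 50 kb of Sall1 and the 10 of Sall4, none had an Oct1 peak both in ESCs and later. Sall1 had no ESC Oct1 peak within 50 kb at all. Such sites are few near all protein-coding genes as well. There, 3.30% of sites had Oct1 in ESCs and at day 6. Oct1 in ESCs and at day 3 without day 6 made up 1.55% with Oct4 and 1.22% without it. The difference between Sall3 and these 2 genes was not tested.

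Sall2 had an ESC site with both factors (Oct1 rank 4494, Oct4 rank 1690) and a day 6 Oct1 peak elsewhere in the gene (rank 5546). Jam3, an adhesion gene like Jam2, had 2 Oct4 peaks in its body in ESCs (ranks 4894 and 11992) and no Oct1 peak within 10 kb in any list. Tcl1b1 and Tcl1b2 had ESC Oct1 peaks at ranks 4204 and 3889, and the Tcl1b1 peak is the one counted above for Tcl1. Lin28b, the paralog of Lin28a, and F11r had no peak within 10 kb in any of the 4 lists.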
